A study of Mus musculus with 8 samples.

Results

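Calmodulin and the kinases it activates were described in bulk RNA-seq of whole mouse brain through 9 genes out of the 24343 genes quantified. They were chosen by gene symbol: the calmodulin genes Calm2 and Calm3, the 4 genes of calcium/calmodulin-dependent kinase II (Camk2a, Camk2b, Camk2d and Camk2g), the related kinase gene Camk4, and Camk2n1 and Camk2n2, which encode inhibitors of kinase II. RNA came from the whole brains of 3 C57BL/6NCrl mice, 56 to 62 days old, kept under a single housing condition with no treatment or transgene named, with 3 libraries each for mice 1 and 2 and 2 libraries for mouse 3. The values are FPKM (sequenced fragments scaled to transcript length and to library size), summed over the transcripts of a gene, and are therefore comparable between genes per length. No condition was compared, so the questions that the design allows are how high each gene stood, how far libraries and mice spread around that level, and whether the 3 mice differed. Tests between mice took the libraries as replicates. The sources used here do not say how libraries of 1 mouse relate to each other, so the p-values describe these 3 mice and may measure technical spread only.

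Calmodulin is a small protein that binds calcium through EF-hand loops and then wraps around and activates its partners. Calcium/calmodulin-dependent kinase II (CaMKII) assembles into holoenzymes of many subunits, is abundant at excitatory synapses, and stays active after calcium has fallen once a threonine next to its calmodulin-binding segment is phosphorylated, a step tied to synaptic plasticity. CaMKIV, the product of Camk4, is a monomeric kinase of the neuronal nucleus that phosphorylates CREB, and the Camk2n proteins bind active CaMKII and block it.

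Coding sequences of the transcript of highest FPKM of each gene were read from GENCODE M21 on GRCm38 (mm10). The calmodulin pair is shown first because their products are the same while their transcripts are not. Both genes encode 149 residues that were identical at all 149 positions, yet 78 of their 450 coding bases differed. The stretches below cover coding bases 43 to 114 in exon 3 of each gene, which hold the first calcium-binding loop (Calm2, chr17:87435855-87435926, minus strand; Calm3, chr7:16917649-16917720, minus strand). Capitals mark the 13 of 72 bases that differ, all 13 at the third position of a codon.
Calm2: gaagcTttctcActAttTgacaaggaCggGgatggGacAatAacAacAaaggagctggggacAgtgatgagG
Calm3: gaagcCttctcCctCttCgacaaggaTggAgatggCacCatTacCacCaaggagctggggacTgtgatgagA

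The longest run of bases shared exactly by the GENCODE M21 transcripts of Calm2 and Calm3 was 17. A longer fragment therefore holds at least 1 base at which these transcripts differ.

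Camk2b, Camk2d and Camk2g are shown around the codon of the threonine that is autophosphorylated, residue 287 in each of them and residue 286 in Camk2a. Each stretch is coding bases 826 to 885 in exon 11 (Camk2b, chr11:5988973-5989032, minus strand; Camk2d, chr3:126797708-126797767, plus strand; Camk2g, chr14:20760415-20760474, minus strand), and capitals mark the threonine codon.
Camk2b: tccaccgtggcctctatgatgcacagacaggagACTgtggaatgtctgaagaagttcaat
Camk2d: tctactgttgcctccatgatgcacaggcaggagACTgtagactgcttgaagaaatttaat
Camk2g: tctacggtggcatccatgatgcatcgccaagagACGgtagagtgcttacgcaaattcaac

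Over these 60 bases Camk2b differed from Camk2d at 11 bases and from Camk2g at 19, whereas the encoded 20 residues differed at 1 in both comparisons. Whole proteins of the 4 kinase II genes shared between 83.9% (Camk2a with Camk2g) and 87.6% (Camk2b with Camk2g) of aligned residues. CaMKIV shared between 34.0% and 37.4% with them. The longest exact run common to the GENCODE M21 transcripts of 2 kinase II genes was 32 bases, between Camk2a and Camk2b. For Camk2d that transcript is 4180 bases long, against 5593 in the deposited table, so part of the quantified transcript was not compared.

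The 2 inhibitor genes are shown over the 21 codons that begin their kinase-binding segment, which lie across exons 1 and 2 in both (Camk2n1, between the outer positions chr4:138455309-138456737, plus strand; Camk2n2, chr16:20620224-20621068, minus strand). Capitals mark the 12 of 63 bases that differ. Only 1 of the 21 encoded residues differed, against 71.1% identity over the 76 aligned residues of the whole proteins.
Camk2n1: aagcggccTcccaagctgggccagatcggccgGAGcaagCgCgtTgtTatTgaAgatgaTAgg
Camk2n2: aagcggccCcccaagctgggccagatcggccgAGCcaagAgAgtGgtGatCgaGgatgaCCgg

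All 9 genes were detected in all 8 libraries, at mean levels from 24.97 FPKM (Camk2d) to 1080.4 FPKM (Calm2). The libraries held 1.31 to 2.02 gigabases of transcript sequence each, and the read depth on the 9 genes ran from 34.5 per base (Camk2d) to 2896 per base (Calm2), so that no value rested on a handful of reads. The read length was not given in the sources used here, so the number of reads behind a value is unknown and no counting interval was computed.

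Calm2 was the highest, at 1080.4 ± 104 FPKM (mean ± SD, n = 3 mice), and ranked 13 among the 24343 genes. Calm3 followed at 478 ± 28.6 FPKM, rank 65. Camk2n1, the larger of the inhibitor pair in expression, stood at 429 ± 102 FPKM with rank 84, next to Camk2a at 397 ± 90.4 FPKM with rank 100. These 4 genes were all among the 100 highest of the brain transcriptome.

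Camk2b stood at 149 ± 22.9 FPKM (rank 353), Camk2n2 at 59.7 ± 10.1 FPKM (rank 1033) and Camk2g at 54.4 ± 2.49 FPKM (rank 1153). Camk4 and Camk2d were the lowest, at 27.3 ± 3.55 FPKM (rank 2471) and 24.97 ± 6.17 FPKM (rank 2699). Over the 9 genes the coefficient of variation between mice had a median of 15.3%, against 12.3% for the 13001 genes whose mean reached 1 FPKM.

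Some neighbours in this order overlapped over the mice. Calm2 exceeded Calm3, Camk2a exceeded Camk2b, Camk2b exceeded Camk2n2 and Camk2g exceeded Camk4 in 8 of 8 libraries, with mouse means that did not overlap. Calm3 exceeded Camk2n1 in 6 of 8 libraries, Camk2n1 exceeded Camk2a in 7, Camk2n2 exceeded Camk2g in 6 and Camk4 exceeded Camk2d in 4, and in these 4 pairs the mouse means overlapped. Within mice, Camk2n1 was above Camk2a in 3 of 3, and the other 3 pairs kept their order in 2 of 3. The plot of levels by library shows the 4 steps and, within each gene, the position of mouse 3.

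**Figure D1:**
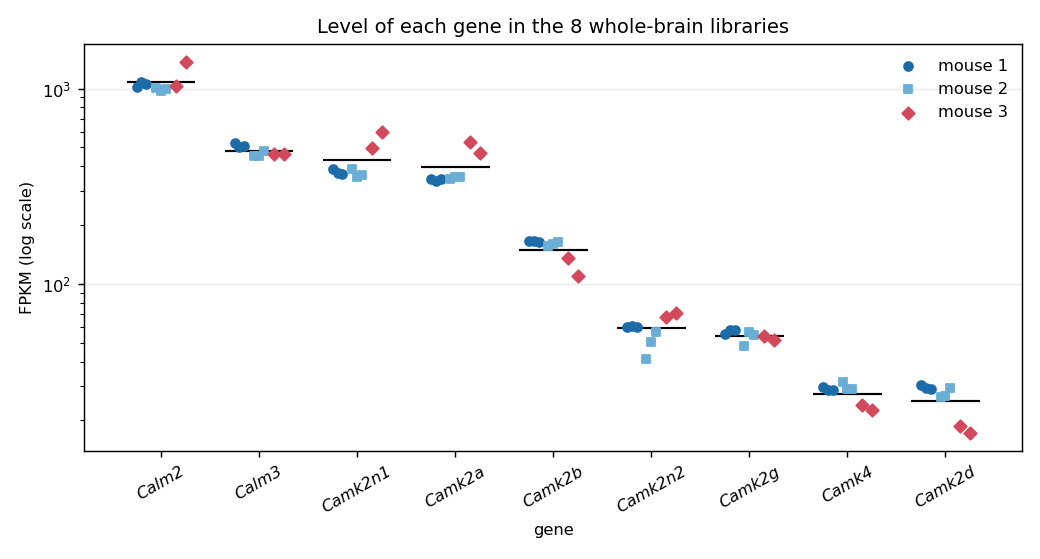
FPKM (log scale) of the 9 genes in each of the 8 libraries, coloured by mouse, with the mean over the 3 mice as a black line. Both libraries of mouse 3 lie above the other 6 for Camk2a, Camk2n1 and Camk2n2 and below them for Camk2b, Camk2d and Camk4.

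The 3 mice differed in 6 of the 9 genes by the moderated F-test of limma, run on log2(FPKM + 1) values of 13001 genes, at an adjusted p under 0.05. The same test called 26.9% of all genes (3496). Camk2a, Camk2n1 and Camk2n2 were higher in mouse 3 than the mean of mice 1 and 2, a direction in which 15.0% of all genes were called. Camk2b, Camk2d and Camk4 were lower in mouse 3, as were 11.9% of all genes. In these 6 genes mouse 3's libraries did not overlap the other 6 libraries, and over all genes both libraries of mouse 3 lay above the others for 26.5% and below them for 21.7%. Differences given below are log2(FPKM + 1) of mouse 3 minus the mean of mice 1 and 2, with the standard error of the limma fit. The limma adjusted p printed beside a difference is that of the F-test over the 3 mice. It does not test that difference by itself, and a gap between mice 1 and 2 also lowers it. A gene called higher or lower is one called by the F-test, with the direction taken from the difference.

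Camk2a, the alpha subunit and the most abundant CaMKII gene of forebrain excitatory neurons, gave 345, 335 and 344 FPKM in mouse 1, 346, 352 and 351 FPKM in mouse 2, and 534 and 469 FPKM in mouse 3. The 6 libraries of mice 1 and 2 thus lay within 335 to 352 FPKM and both libraries of mouse 3 lay above them. The mean of mouse 3 was 1.45 times that of the others, a difference of 0.53 ± 0.08 (adjusted p = 0.00846). The call held without each library in turn (8 of 8).

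Camk2b, the beta subunit, which also binds actin, gave 165, 166 and 163 FPKM in mouse 1 and 156, 160.4 and 163 FPKM in mouse 2. In mouse 3 it gave 136 and 109.8 FPKM, both below the others, a difference of −0.41 ± 0.09 (adjusted p = 0.0260). The call held in 3 of the 8 fits that left out 1 library, with a difference of −0.25 (adjusted p = 0.129) without library 2 of mouse 3.

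Camk2d, the delta subunit, known best from heart muscle, gave 30.3, 29.3 and 29.0 FPKM in mouse 1 and 26.4, 26.6 and 29.3 FPKM in mouse 2. It gave 18.7 and 17.3 FPKM in mouse 3, again below the other 6 libraries. On the deposited scale this was the largest difference among the 9 genes, at −0.64 ± 0.07 (adjusted p = 0.00414), and mouse 3 stood at 0.631 times the others. The call held in 8 of 8 fits without 1 library.

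Camk2g, the gamma subunit, which is expressed in many tissues, gave 55.5, 58.4 and 57.9 FPKM in mouse 1, 48.0, 56.4 and 54.8 FPKM in mouse 2, and 53.8 and 51.8 FPKM in mouse 3. The ranges of the mice overlapped and the difference was −0.06 ± 0.08 (adjusted p = 0.446). Its direction turned when the highest transcript was taken in place of the sum (0.081, adjusted p = 0.817).

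Shares of the summed kinase II level compare the 4 genes within a library and do not depend on how a library is scaled. Camk2a made up 57.9%, 56.9% and 57.9% of the sum in mouse 1 and 60.0%, 59.1% and 58.7% in mouse 2, against 71.9% and 72.4% in mouse 3. Over the 3 mice its share was 63.0% ± 7.99 (SD, n = 3), and the share of mouse 3 exceeded the mean of the others by 13.8 percentage points. No other of the 280 groupings of the 8 libraries into 3, 3 and 2 separated the groups as far (exact permutation test, p = 0.00357, the smallest it can give; adjusted p = 0.0107 over 3 ratios).

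The other 3 kinase II genes had smaller shares in both libraries of mouse 3 than in all other libraries. Camk2b made up 18.3% and 16.9% of the sum in mouse 3 and 26.9% to 28.2% elsewhere. Camk2d made up 2.51% and 2.66% in mouse 3 and 4.46% to 5.09% elsewhere, and Camk2g 7.25% and 7.99% in mouse 3 and 8.33% to 9.91% elsewhere. Since the 4 shares add up to the whole, they are not separate results.

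**Figure D2:**
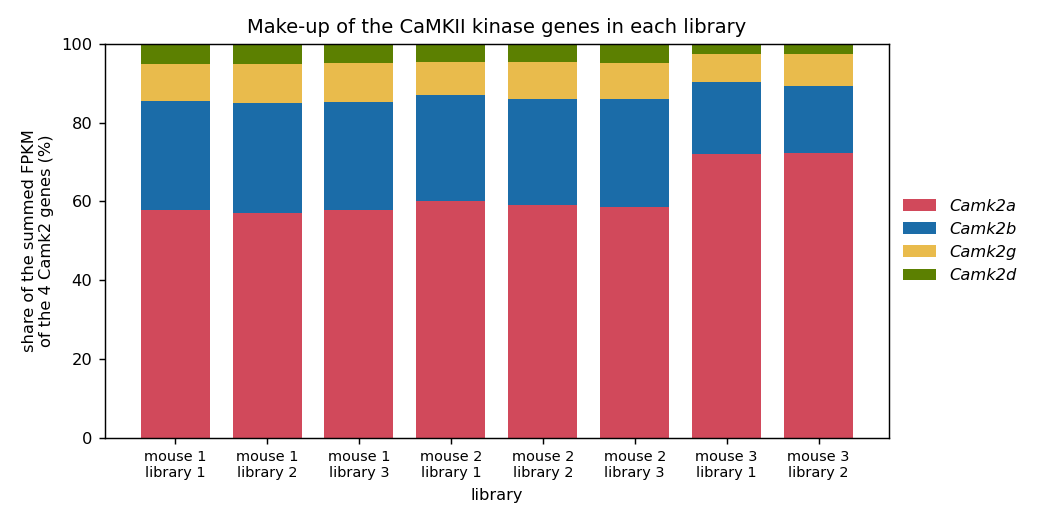
Stacked bars give each kinase II gene's share (%) of the summed FPKM of Camk2a, Camk2b, Camk2d and Camk2g in each of the 8 libraries. The Camk2a part reaches 71.9% and 72.4% in the 2 libraries of mouse 3 and lies between 56.9% and 60.0% in the other 6.

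Transcripts of the kinase II genes were read by their RefSeq names. For Camk2a, NM_177407 held 98.4% ± 0.0459 of the gene's FPKM (SD, n = 3 mice) and NM_009792, which starts further downstream, held 1.61%. For Camk2b, NM_007595 held 95.0% ± 0.266. Camk2a and Camk2b were therefore each carried by a single annotated transcript in every library.

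Camk2d and Camk2g were spread over several transcripts. For Camk2d, NM_001293663 held 57.9% ± 1.74 and NM_001025438 held 30.2% ± 2.00, with the other 5 transcripts at 7.20% or less each. Camk2g was divided between NM_178597 (39.1% ± 6.14), NM_001039138 (37.9% ± 9.20) and NM_001039139 (22.9% ± 3.96). The share of NM_001039138 was 42.9% to 54.1% in mouse 3 and 24.3% to 42.9% in the other libraries, so that the groups met at their edges. NM_178597 made up 30.9% to 33.7% of Camk2g in mouse 3 and 35.5% to 49.2% elsewhere, without overlap. Of the smaller Camk2d transcripts, NM_001025439 (mean 1.88 FPKM) held 3.41% to 5.87% in mouse 3 and 6.55% to 11.8% elsewhere. NM_001293666 (mean 0.439 FPKM) held 2.96% to 3.13% and 0.548% to 2.55%. How many of all transcripts have shares that set mouse 3 apart in this way was not counted. Among gene sums, both libraries of mouse 3 lay above the others for 26.5% of genes and below them for 21.7%. Fragments common to several transcripts are divided by estimation, which makes transcript shares less certain than the gene sums.

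**Figure D3:**
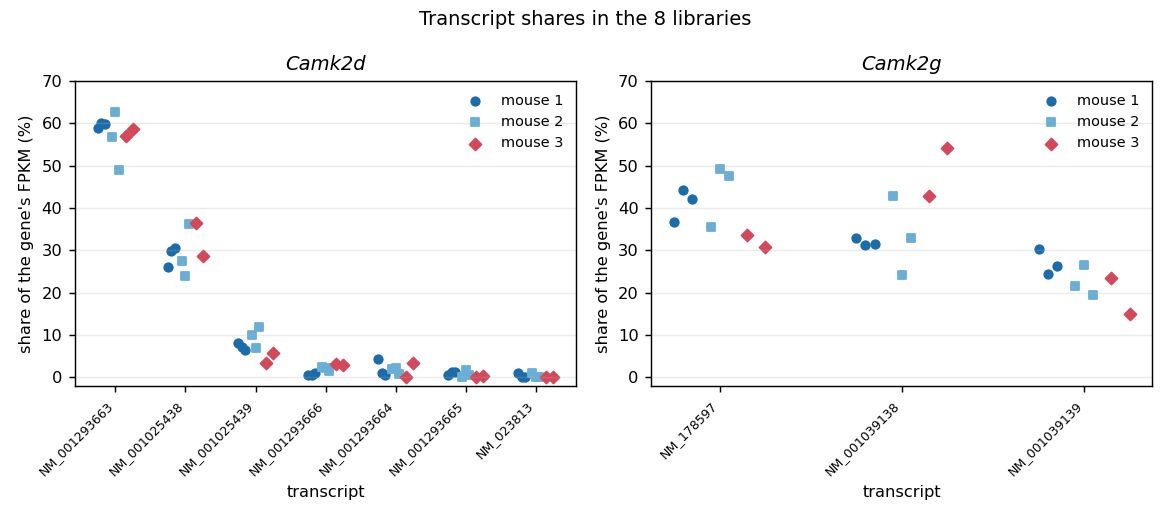
Share (%) of each RefSeq transcript in the FPKM of Camk2d (left) and Camk2g (right) in the 8 libraries, coloured by mouse. NM_001293663 leads Camk2d in every library, whereas the 3 Camk2g transcripts overlap and vary between libraries of the same mouse.

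Camk4 gave 29.6, 28.6 and 28.5 FPKM in mouse 1 and 31.5, 29.0 and 28.8 FPKM in mouse 2. Mouse 3 gave 23.96 and 22.5 FPKM, below the other 6 libraries, a difference of −0.32 ± 0.07 (adjusted p = 0.0220). The transcript behind these values is 12331 bases long in the deposited table, the longest among the 9 genes, and 2717 bases long in GENCODE M21. Both the FPKM and the length trend use the length in the table. With the trend of each library with transcript length removed, the difference was −0.0055 (adjusted p = 0.992), so the call depended on that trend. The call held in 4 of the 8 fits that left out 1 library, where the difference ran from −0.37 to −0.28.

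Camk2n1 gave 385, 371 and 364 FPKM in mouse 1 and 386, 354 and 359.85 FPKM in mouse 2. Mouse 3 gave 496 and 596 FPKM, both above the others, a difference of 0.55 ± 0.10 (adjusted p = 0.0121). The call held in 7 of 8 fits without 1 library, with a difference of 0.42 (adjusted p = 0.0828) without library 2 of mouse 3.

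Camk2n2 gave 60.1, 60.8 and 59.9 FPKM in mouse 1, 41.3, 50.1 and 56.5 FPKM in mouse 2, and 67.7 and 71.2 FPKM in mouse 3. Its difference was 0.35 ± 0.11 (adjusted p = 0.0325), and mouse 2 lay below mouse 1 in all of its libraries. The call held in 2 of the 8 fits without 1 library, and the difference was 0.031 (adjusted p = 0.118) with the length trend removed.

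The inhibitor genes were set against the kinase genes as the log2 ratio of Camk2n1 plus Camk2n2 to the 4 kinase II genes. It was −0.42, −0.45 and −0.49 in mouse 1, −0.43, −0.56 and −0.52 in mouse 2, and −0.40 and 0.041 in mouse 3. Inhibitor RNA thus stood below kinase RNA, per length, in 7 of the 8 libraries. The mice differed by the exact permutation test (p = 0.0107, adjusted p = 0.0161), but without library 2 of mouse 3 the difference fell from 0.30 to 0.079 (adjusted p = 0.386).

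Calm2 gave 1024, 1084 and 1059.8 FPKM in mouse 1 and 1007, 972 and 992 FPKM in mouse 2. In mouse 3 its 2 libraries lay far apart, at 1030.0 and 1359.8 FPKM, with the authors' confidence bounds at 1013 to 1047 and 1340.0 to 1379.5 FPKM. The difference was 0.21 ± 0.12 (adjusted p = 0.344). It was 0.41 (adjusted p = 0.0423) with library 2 as the only library of mouse 3 and 0.011 (adjusted p = 0.664) with library 1 alone, where the spread comes from mice 1 and 2 and the lone library is assumed to vary like theirs. The same holds for every fit without a library of mouse 3.

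Calm3 gave 524, 502 and 505 FPKM in mouse 1, 449, 449.7 and 476 FPKM in mouse 2, and 463 and 465 FPKM in mouse 3. Its difference was −0.06 ± 0.08 (adjusted p = 0.297). Calm2 made up 69.2% ± 2.28 (SD, n = 3 mice) of the summed level of the pair, between 66.1% and 69.2% in 7 libraries and 74.5% in library 2 of mouse 3. This share did not pass the test between mice (exact permutation test, p = 0.05, adjusted p = 0.05). With the length trend removed, the share of mouse 3 exceeded that of the others by 0.0828 percentage points.

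The scale of the values mattered for which genes were called. Rescaling each library to the same total (TPM) moved the median difference of all genes from 0.020 to −0.26, and the split of calls from 1954 higher and 1542 lower to 855 higher and 4871 lower, so that 44.0% of all genes were called. On that scale Camk2a (0.24, adjusted p = 0.137), Camk2n1 (0.26, adjusted p = 0.147) and Camk2n2 (0.055, adjusted p = 0.0616) were not called, whereas Calm3 (−0.36, adjusted p = 0.0134) and Camk2g (−0.36, adjusted p = 0.00831) were called lower. Relative to the median of all genes, Camk2a stood at 0.51 on the deposited scale and 0.49 on TPM, Camk2n1 at 0.53 and 0.51, Camk2b at −0.43 and −0.45, and Camk2d at −0.66 and −0.69. The Camk2b, Camk2d and Camk4 calls held on both scales.

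Length trends differed between the mice as well. The rank correlation across genes between transcript length and a library's deviation from the mean of all libraries was 0.182 to 0.502 in the 6 libraries of mice 1 and 2, and −0.363 and −0.574 in those of mouse 3. With this trend removed 22.2% of all genes (2882 of 13001) were called. Camk2a (0.67, adjusted p = 0.000568) and Camk2n1 (0.61, adjusted p = 0.00637) were still higher in mouse 3, and Camk2b (−0.32, adjusted p = 0.0234) and Camk2d (−0.48, adjusted p = 0.00263) still lower. The plot of differences under 4 treatments of the values sets these side by side.

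**Figure D4:**
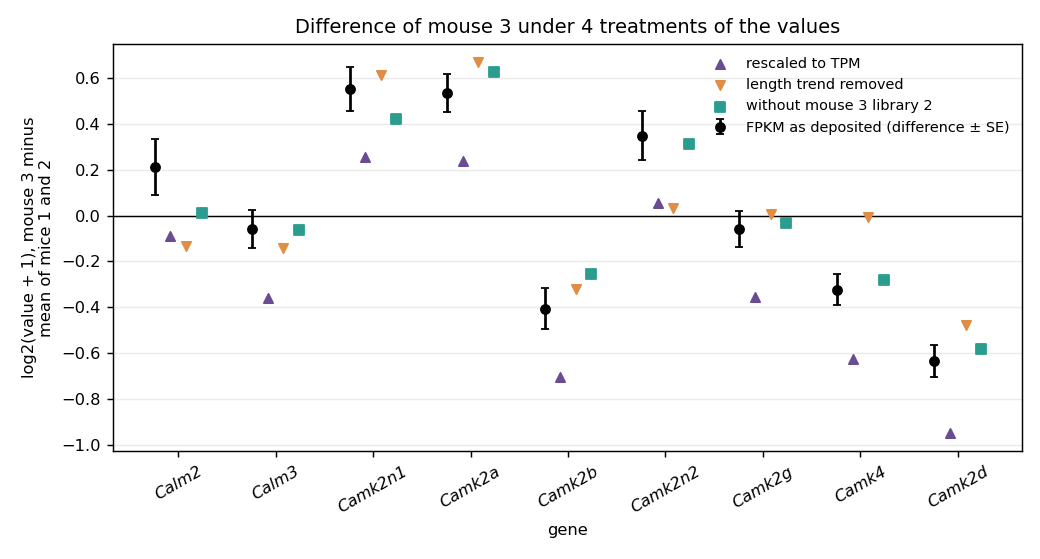
Difference of mouse 3 from the mean of mice 1 and 2 on the log2(value + 1) scale for each gene, from FPKM as deposited (black, ± SE of the limma fit), after rescaling to TPM, after removing the length trend, and without library 2 of mouse 3. Camk2a, Camk2n1 and Camk2n2 lie above 0 and Calm3, Camk2b, Camk2d and Camk4 below 0 under all 4. With the length trend removed Camk2n2 (0.031) and Camk4 (−0.0055) lie close to 0. Calm2 and Camk2g lie on both sides of it.

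Genes of brain cell types also differed between the mice, and in bulk RNA fewer cells of a type and less RNA per cell cannot be told apart. The summed level of 6 neuronal genes was 1613 to 1694 FPKM in mouse 3 and 1877 to 2031 FPKM in the other libraries. Of these genes 3 of 6 were called lower, beside 11.9% of all genes. The sum of 4 astrocyte genes was 294 to 330.1 FPKM in mouse 3 against 190.1 to 205 FPKM, with 4 of 4 called higher, beside 15.0% of all genes, and 1 of 4 called without library 2 of mouse 3. The sum of 4 oligodendrocyte genes was 3676 to 4561 FPKM in mouse 3 against 1902 to 2099.8 FPKM, with 1 of 4, Mbp, called higher. All 4 were at an unadjusted p under 0.05, beside 41.1% of all genes. With upper-quartile scaling 4 of 4 were called higher, beside 2161 of 13001 over all genes. With the length trend removed 2 of 4 were called higher, beside 1516 of 13001 over all genes. On TPM it was 1 of 4, beside 855 of 13001. Without library 2 of mouse 3 the median difference of this list was 0.26, against 0.41 with all libraries. The part of these cell types in the differences of the 9 genes was not tested. On the deposited scale, microglial genes (51.5 to 52.5 against 44.2 to 49.9 FPKM), endothelial genes (34.0 to 36.5 against 20.4 to 28.2 FPKM) and blood genes (801 to 897 against 529.6 to 659 FPKM) summed higher in mouse 3. Limma called 1 of 4, 0 of 3 and 1 of 5 of them higher, beside 15.0% of all genes. Of the endothelial genes 1 of 3 was at an unadjusted p under 0.05, as were 41.1% of all genes. On TPM the median differences of these 3 lists were −0.11, 0.013 and −0.022, against −0.26 for all genes. There 0 of 4, 0 of 3 and 1 of 5 were called higher, beside 855 of 13001 over all genes. On TPM, 6 of 6 neuronal genes were called lower, beside 4871 of 13001 over all genes, and 1 of 4 astrocyte genes higher, beside 855. Choroid plexus sums overlapped (435 to 566 against 322 to 552 FPKM), with 1 of 5 genes, Kl, called lower in mouse 3 (−0.68), and sums of pituitary (2.12 to 3.17 FPKM), muscle (1.83 to 12.9 FPKM) and liver genes (0 to 0.462 FPKM, with Alb at 0 in every library) were low throughout.

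Other genes of calmodulin signalling were read from 8 lists with 54 genes, of which 49 reached a mean of 1 FPKM. The test called 18 of the 49 (4 higher and 14 lower in mouse 3), beside 3496 of 13001 over all genes. Their median difference was −0.13, against 0.020 for all genes. Without library 2 of mouse 3 the test called 4 of the 49 (Mef2c, Ppm1e, Ppp3ca and Syn1, all lower), beside 2.86% of all genes (372 of 12998), and the median difference was −0.026, against 0.022 for all genes. On TPM it called 27 of the 49 (1 higher and 26 lower), beside 5726 of 13001 over all genes (855 higher and 4871 lower). With the length trend removed it called 17 (7 higher and 10 lower), beside 2882 of 13001 (1516 higher and 1366 lower), and the median difference was −0.050.

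Among other calmodulin-dependent kinases, 5 of 10 tested genes were called, beside 26.9% of all genes. Camkv, a kinase-like protein without kinase activity, was the most expressed at 74.6 ± 4.33 FPKM, and Camkk2, which phosphorylates and activates CaMKI and CaMKIV, stood at 41.6 ± 1.499 FPKM. Neither was called (adjusted p = 0.437 and 0.691). Camk1, a cytosolic kinase, was higher in mouse 3 (0.56 ± 0.10, adjusted p = 0.0105). Its relatives Camk1d (−0.42 ± 0.07, adjusted p = 0.0107) and Camk1g (−0.45 ± 0.08, adjusted p = 0.00965) were lower, as were the activating kinase Camkk1 (−0.43 ± 0.10, adjusted p = 0.0266) and the death-associated kinase gene Dapk1 (−0.41 ± 0.11, adjusted p = 0.0442).

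Calcineurin, the calmodulin-dependent phosphatase, had 2 of 7 tested genes called, beside 26.9% of all genes. Both were lower in mouse 3. These were its catalytic subunit gene Ppp3ca (182 ± 46.4 FPKM, −0.69 ± 0.08, adjusted p = 0.00414) and its regulatory subunit gene Ppp3r1 (237 ± 30.8 FPKM, −0.34 ± 0.08, adjusted p = 0.0296). Of the phosphatases that dephosphorylate the kinases themselves, Ppm1e (33.3 ± 8.72 FPKM) was lower in mouse 3 (−0.71 ± 0.10, adjusted p = 0.00701), and Ppm1f (11.3 ± 0.880 FPKM) was not called (0.15 ± 0.09, adjusted p = 0.291).

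The small IQ-motif proteins, which bind calmodulin, had 0 of 4 genes called by limma, beside 26.9% of all genes. At an unadjusted p under 0.05 were 3 of 4, beside 5343 of 13001 over all genes. With upper-quartile scaling 2 of 4 were called (1 higher and 1 lower), beside 4031 of 13001. On TPM 1 of 4 was called, lower in mouse 3, beside 4871 of 13001 called lower. With the length trend removed it was also 1 of 4, beside 1366 lower, and the median difference was −0.17, against 0.21 on the deposited scale. Pcp4 (685 ± 143 FPKM) gave 0.47 ± 0.13 (adjusted p = 0.0505) and Nrgn, neurogranin, gave −0.28 ± 0.09 (adjusted p = 0.0533). These 2 genes stood at levels between those of Calm2 and Camk2a.

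Enzymes stimulated by calmodulin had 2 of 7 genes called, beside 26.9% of all genes. Both were lower in mouse 3: the phosphodiesterase gene Pde1a (37.2 ± 4.97 FPKM, −0.34 ± 0.07, adjusted p = 0.0224) and the neuronal nitric oxide synthase gene Nos1 (7.60 ± 1.47 FPKM, −0.46 ± 0.09, adjusted p = 0.0210). The most expressed, the adenylyl cyclase gene Adcy1 (59.5 ± 7.54 FPKM) and Pde1b (58.2 ± 3.64 FPKM), were not called (adjusted p = 0.0911 and 0.458).

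Nuclear targets had 4 of 12 genes called, beside 26.9% of all genes. Mef2c, a transcription factor of neurons and muscle, stood at 65.5 FPKM in mouse 1, 65.0 FPKM in mouse 2 and 33.4 FPKM in mouse 3 (−0.95 ± 0.08, adjusted p = 0.00298). Mef2a (−0.43 ± 0.07, adjusted p = 0.0104) and Camta1, a calmodulin-binding transcription activator (−0.45 ± 0.07, adjusted p = 0.00708), were lower too, and Crem, a CREB relative, was higher (0.47 ± 0.11, adjusted p = 0.0302). Camta2 (44.2 ± 1.24 FPKM) was not called (0.06 ± 0.08, adjusted p = 0.819).

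Synaptic partners and substrates of CaMKII had 3 of 6 genes called, beside 26.9% of all genes. Dlg4, which encodes the scaffold PSD-95, was higher in mouse 3 on the deposited scale (169 ± 20.2 FPKM, 0.29 ± 0.07, adjusted p = 0.0412). On TPM 0 of the 6 genes had a difference above 0, so Dlg4 was not higher there. With upper-quartile scaling 0 of 6 were called higher, beside 2161 of 13001 over all genes. With the length trend removed it was 2 of 6, beside 1516 of 13001. The synapsin gene Syn1 was lower (121 ± 27.6 FPKM, −0.61 ± 0.11, adjusted p = 0.0111). Of 4 calmodulin-like genes, Calm4 and Calm5 were listed at 0 in every library and Calml3 stood at 0.0325 ± 0.0155 FPKM. Calml4 (3.37 ± 1.197 FPKM) was higher in mouse 3 (0.65 ± 0.16, adjusted p = 0.0392). It was not called on TPM (0.49), without library 2 of mouse 3 (0.56) or with the length trend removed (0.12).

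**Figure D5:**
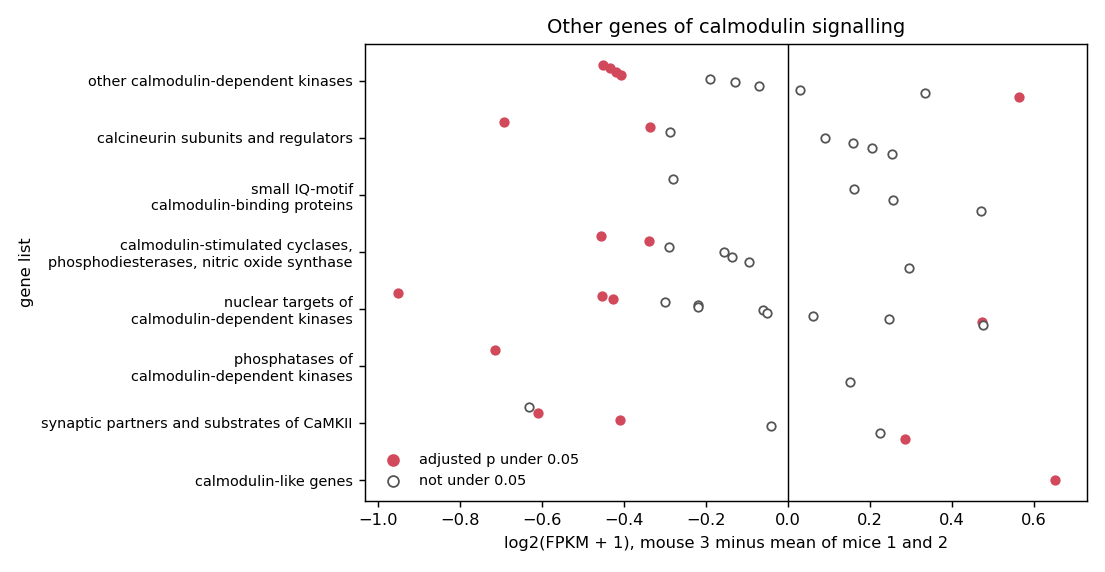
Each point is a gene of the 8 calmodulin-signalling lists, placed by its difference of mouse 3 from the mean of mice 1 and 2 on the log2(FPKM + 1) scale, and filled where the limma test called it. Of the 49 points, 18 are filled, 14 of them to the left of 0.

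For 3 of the 9 genes the most similar profiles over the 8 libraries were sought among 5948 other genes that averaged 10 FPKM or more, by the SD of the log2 ratio of the values (FPKM + 1). Camk2a was followed most closely by Slc6a11 (SD 0.0388), Daam2 (0.0447) and Epas1 (0.0501), where the median SD over all genes was 0.276. Camk2d was followed by Ccrn4l (0.0456), Cdk17 (0.0520) and Pcsk2 (0.0529), with a median of 0.356. Calm2 was followed by Ccnh (0.0302), Id2 (0.0365) and Rit2 (0.0384), with a median of 0.219. All genes share the 8 libraries and their depth and length trends, so these values are descriptions.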

How the data were processed

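RNA was measured in 8 libraries from the whole brains of 3 mice, with groups taken from the mouse identity in the labels. The authors purified total RNA with an RNAqueous Micro kit, kept samples of high integrity and built libraries with a Kapa mRNA HyperPrep kit. The submitters' processing notes name TopHat, Cufflinks and mm10, without versions. The deposited table gives FPKM with confidence bounds for 34535 RefSeq transcripts, the transcript length, and coverage, the authors' estimate of read depth per base as a signal not scaled for library size. Of these, 8 transcript values had a failed status, none of them of the 9 genes. Locus starts in the table count from 0 and were raised by 1. Strand setting and read length are not given in the sources used here.

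FPKM was summed over the transcripts of a gene, averaged per mouse and then over mice. Mice were compared with limma 3.58.1 (R 4.3.3; moderated F-test with trend) on log2(FPKM + 1). The 13001 genes whose mean reached 1 FPKM were tested, p-values were adjusted over them by Benjamini-Hochberg, and the threshold was 0.05. The 3 ratios were tested by exact permutation of the 8 libraries over 280 groupings (Python, one-sided on the spread between mice). Both tests were tested on simulated data with independent noise. Such data lack the length trends of these libraries, so they do not cover calls that depend on those trends. Coverage multiplied by length gave the bases per library as the measure of depth. Length trends were removed by a lowess curve (span 0.3) on log10 length. Proteins were aligned with Biopython 1.88 (BLOSUM62), from GENCODE M21 transcripts matched by RefSeq name for 9 of 9 genes.

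Named genes were the 9 genes, the 2 of highest FPKM and up to 4 of lowest adjusted p among those called in each signalling list, and 3 genes of most similar profile for Camk2a, Camk2d and Calm2. Dapk1, Mbp and Kl lie outside this rule and were named after their values were seen. Values of 1 gene that the rule names are not reported here. The genes, lists and tests were chosen with earlier results of these data known. Alternatives were another pseudocount, minimum levels, TPM, upper-quartile scaling, length trend removal, the highest transcript, no variance trend, a replicate block and leaving out each library, with a fit of mice 1 and 2 only added after seeing the data.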

Additional observations from a re-analysis of the deposited data

Results flagged for a closer look

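Over the 8 libraries, 12 measures of the 9 genes were examined. In 3 of them 1 library lay farther from the nearest other library than Dixon's 95% limit for 8 samples allows. Independent values of 1 distribution would exceed that limit in about 1 of 20 measures. The libraries are grouped by mouse, so this rate does not hold here. The share of all genes past the limit was not counted. All 3 measures were highest in library 2 of mouse 3, and the first 2 given here share Calm2, so they are not independent. Calm2 stood at 1359.8 FPKM there, and the next library at 1084 FPKM. The Calm2 share of the summed Calm2 and Calm3 level was 74.5%, with the next library at 69.2%. The log2 ratio of Camk2n1 plus Camk2n2 to the 4 kinase II genes was 0.041, with the next library at −0.40. The same library had the strongest correlation of its deviations with transcript length, at −0.574, and its part in these values was not tested apart from the removal of the length trend.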

How the results depend on the processing

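Test calls between the mice depended on single libraries more than on other settings. Leaving out 1 library gave 372 to 4131 called genes (3496 with all libraries) and 2 to 6 called genes of the 9. The lowest counts came without library 2 of mouse 3, where Camk2a and Camk2d were the called pair of the 9; without a library of mouse 1 the counts were 1969 to 2215 genes and 3 of the 9. The other 9 settings gave 2441 to 5726 called genes, with 5726 on TPM, and 4 to 6 of the 9. Between mice 1 and 2 alone, limma called 3 of 12934 genes (556 at an unadjusted p under 0.05) and 0 of the 9 (1, Camk2n2, at an unadjusted p under 0.05). Calm2 turned direction on TPM (−0.089) and with the length trend removed (−0.13), and Camk2g with the length trend removed (0.0056) and with the highest transcript (0.081); neither was called in these. The Camk2a share differed by 13.5 to 14.0 percentage points without 1 library (adjusted p over 0.05 only without library 2 of mouse 1, 13.6, adjusted p = 0.0571). The log2 inhibitor ratio differed by 0.26 with the highest transcript and 0.20 with the length trend removed, both past the threshold no longer (adjusted p = 0.05 and 0.279), and by 0.079 to 0.52 without 1 library, with an adjusted p under 0.05 in 2 of 8 such tests; the cause was not tested. With the library number as a replicate block, limma called 3385 genes and 6 of the 9. Deviations of same-numbered libraries of different mice correlated at 0.00276 to 0.107, and those of differently numbered libraries at −0.135 to 0.0645. Whether the numbers pair the libraries was not tested.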
